A study of Papio anubis with 28 samples.

Results

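The genes described here are 35 interferon response genes, a list of genes that type I interferon is known to switch on, followed across native and grafted urinary bladder of the olive baboon (Papio anubis). They were taken by gene symbol from a table of 27533 genes. Of the 35 symbols, 34 had a row in the table, and USP18 was not analysed here. The filter on low counts left 33 members among 17177 genes tested, and IRF7 was the member left out. The filter used the counts of all groups, so a member could pass through 1 group alone.

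RNA was sequenced in 28 libraries from 14 animals, 1 library of graft and 1 of native bladder per animal. The design text names regeneration on stem cell seeded scaffolds and bladder enterocystoplasty, the sewing of bowel into the bladder wall, as the tissues of interest. The first arm, Entero, holds 5 ileum grafts and the native bladders of the same 5 animals. The second, SIS, holds 5 pieces of tissue regenerated on small intestinal submucosa, a decellularised intestinal matrix, and 5 native bladders. The last, PRS, holds 4 pieces of regenerated tissue and 4 native bladders, and no source used here says what PRS stands for. Both kinds of scaffold carried primary bone marrow cells, namely mesenchymal stromal cells (MSC) and CD34+ haematopoietic stem and progenitor cells (HSPC). All 14 animals are labelled WT, and every native bladder came from an animal that also carried a graft, so no group stands for a bladder without surgery. No group holds ungrafted ileum either, so a difference between ileum graft and native bladder cannot be read as a change after grafting. No source used here gives the animals' age, the time after surgery or the region of graft that was taken.

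Type I interferons are secreted when a cell senses foreign or misplaced nucleic acid. They bind the IFNAR1 and IFNAR2 receptor chains, whose kinases activate a complex that holds STAT2 and IRF9 and switches on a wide set of antiviral genes. Type III interferons (lambda) use IFNLR1 with IL10RB on epithelia and end in the same complex, while interferon gamma uses another receptor and induces IRF1, among other genes. The roles given below are known mostly from human and mouse cells and are background to the baboon values.

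Libraries held 20975648 to 35669026 counts. Levels are given as CPM, each library's counts scaled to a common total after TMM, the trimmed mean of M values. The labelled tissues were checked by their markers. VIL1 and CDX2, genes of intestinal epithelium, lay at 152 to 1392 and 82.3 to 183 CPM in the 5 ileum grafts and at or below 0.753 and 0.561 CPM in the other 23 libraries. UPK2, a protein of the urothelial surface, lay at 0 to 4.19 CPM in the ileum grafts and at 10.1 CPM or more in every other library. The 13 mitochondrial genes took 19.8% ± 8.03 of an ileum graft's counts, against 8.39% ± 1.38 in Entero native bladder (SD, n = 5 each). In bulk tissue, fewer cells of a type and less RNA per cell cannot be told apart, and this holds for every level below.

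Read per kilobase of the gene length in the table, IFI6 had the highest level of the list in all 6 groups, at a mean of 147 CPM per kilobase in ileum grafts, against 663 in Entero native bladder, where native library 2 carried most of the mean. Its median over all 14 native libraries was 234 CPM per kilobase. IFI6 is a small membrane protein that opposes cell death. BST2 (tetherin, which holds budding virus on the cell), IFI35 and IRF9 followed by the same median, at 58.3, 42.0 and 34.9 CPM per kilobase. At the low end of that order were OASL, EPSTI1 and HERC5, at 0.525, 0.537 and 0.918 CPM per kilobase. IRF7, the factor that amplifies interferon alpha production, had 0 reads in all 28 libraries. This allows at most 0.00396 CPM over the summed counts, a limit of counting error only. Whether the gene model used for IRF7 is at fault could not be checked, so the 0 is not read as absence of the transcript.

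**Figure D1:**
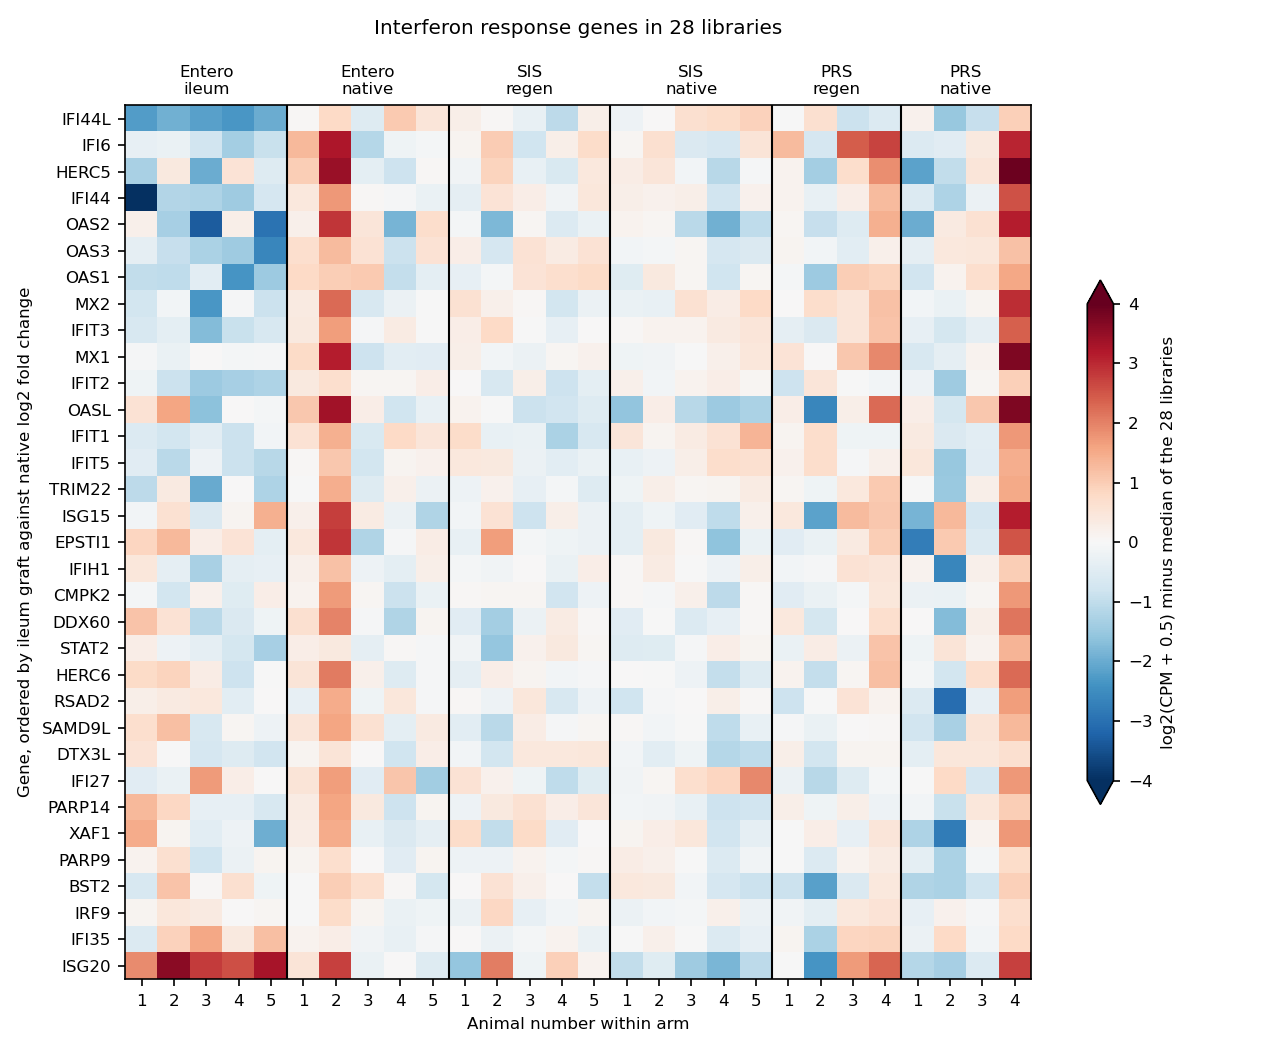
Level of the 33 tested members in each of the 28 libraries. Colour gives log2 CPM, with a small constant added to CPM, minus the member's median over the 28 libraries. Libraries stand in columns by arm, grafts left of native bladders, and members in rows. Entero native library 2 and PRS native library 4 stand out as dark columns, with 31 and 33 of the 33 members at their group's highest value.

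The mean log2 CPM over the 33 members summarised the list. It was 3.84, 4.16, 3.39, 3.68 and 3.52 in the 5 ileum grafts, against 4.46, 5.80, 3.94, 3.77 and 3.98 in the native bladders of the same animals in the same order. Every ileum graft lay below its own native bladder, and the groups overlapped, since the highest graft exceeded 3 of the 5 native libraries. Within animals the list mean differed by -0.67 ± 0.58 on the log2 scale (SD, n = 5), from -1.64 in animal 2 to -0.09 in animal 4, and without animal 2 the mean difference was -0.43. Counted by member, 19, 30, 21, 14 and 22 of 33 were lower in the graft of animals 1 to 5 (57.6%, 90.9%, 63.6%, 42.4% and 66.7%, beside 56.8%, 53.6%, 54.7%, 47.6% and 51.3% of all genes). In animal 4, then, more members were higher in the graft than lower, and in animal 1 the share was near that of all genes. In SIS regenerated tissue the list mean was 4.03, 4.07, 4.05, 3.85 and 4.05, against 3.88, 4.11, 3.98, 3.54 and 4.03 in SIS native bladder. These 2 groups overlapped, with a difference within animals of 0.10 ± 0.14 (SD, n = 5). PRS regenerated tissue had list means of 4.05, 3.40, 4.36 and 4.88, against 3.39, 3.19, 4.09 and 6.01 in PRS native bladder. There 3 of 4 grafts were above their own native bladder, and the remaining pair, animal 4, differed by -1.13. Over the 4 animals the difference was 0.01 ± 0.78 (SD), and no test was run on these list means.

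**Figure D2:**
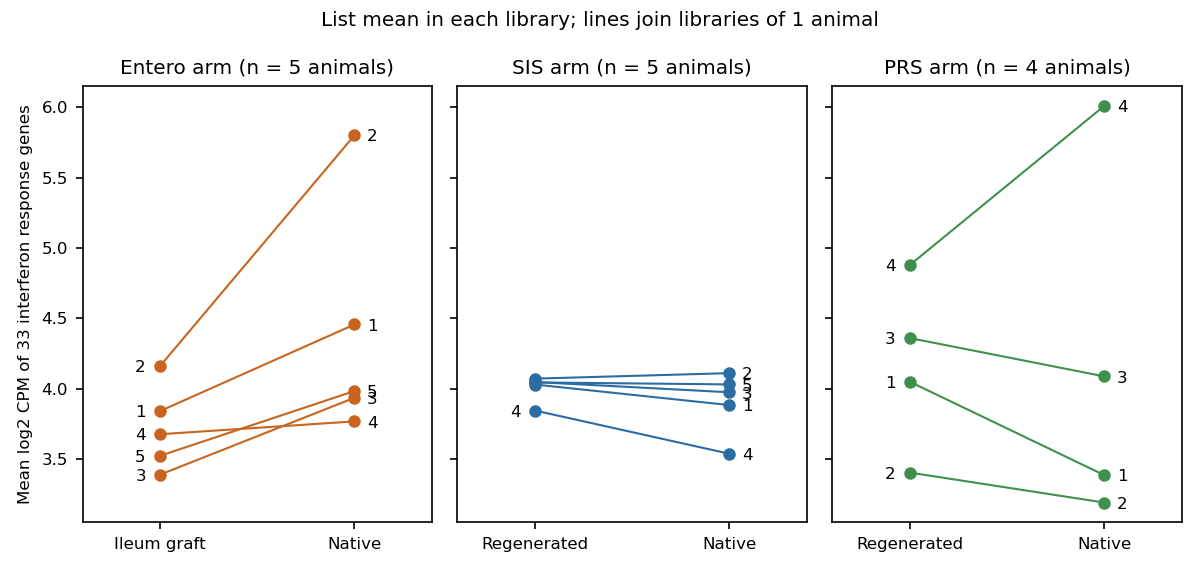
Mean log2 CPM over the 33 tested members in the graft (left) and the native bladder (right) of each animal, with a line per animal and a panel per arm. All 5 Entero lines run upward to the native side, and native libraries of Entero animal 2 (5.80) and PRS animal 4 (6.01) lie above every other library.

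The Entero arm asked how bowel sewn into the bladder differs from the bladder beside it. In ileum grafts 6 of the 33 members were lower than in native bladder at an adjusted p under 0.05 and none was higher, by edgeR's quasi-likelihood test with Benjamini-Hochberg adjustment over all genes. DESeq2 called 8 lower and 1 higher, and the shares of all genes it called are not given beside them. The 6 were IFI44L, OAS3, IFIT2, OAS1, IFIT3 and IFI6, and their folds ran from 2.43-fold to 6.49-fold lower. They make up 18.2% of the members, beside 7.33% of all genes tested that were lower and 7.72% that were higher. At an unadjusted p under 0.05, 13 members passed, 39.4% beside 28.5% of all genes. The log2 fold change was negative in 29 of 33 members, with a median of -0.61 beside -0.03 over all genes.

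IFI44L (ENSPANG00000009471) is an interferon-induced protein with reported antiviral and feedback roles. It had 5.08, 6.32, 5.30, 4.66 and 6.04 CPM in ileum grafts, against 26.2, 44.4, 17.8, 53.8 and 35.7 CPM in native bladder. Every graft was below every native library, and the 5 grafts lay within a narrow band. The log2 fold change was -2.70 (SE 0.42, 95% interval -3.55 to -1.84, adjusted p = 5.85e-05), and IFI44L was lower in 5 of 5 animals. Per kilobase, IFI44L stood at place 22 of 34 members in ileum grafts, against place 6 in Entero native bladder. Its neighbour in name, IFI44, had 0, 4.11, 3.99, 3.42 and 6.09 CPM in ileum grafts, against 13.5, 34.6, 10.2, 9.72 and 8.23 CPM in native bladder. These groups did not overlap either, but the log2 fold change of -2.11 (SE 0.75) missed the threshold with an adjusted p of 0.0555. The 0 in ileum graft 1 allows up to 0.113 CPM of its unscaled total.

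The oligoadenylate synthetases make the messenger that activates RNase L, an enzyme that cuts viral and cellular RNA. OAS3 (ENSPANG00000017167), the largest of them, had 20.5, 13.8, 10.8, 9.51 and 3.94 CPM in ileum grafts, against 42.8, 64.9, 39.7, 14.5 and 40.2 CPM in native bladder. It was lower in 5 of 5 animals, and the groups overlapped only through native library 4. The log2 fold change was -1.79 (SE 0.38, adjusted p = 0.00175). OAS1 (ENSPANG00000007338) had 14.6, 14.2, 21.5, 5.32 and 10.4 CPM in ileum grafts, against 50.8, 57.9, 61.6, 14.9 and 22 CPM in native bladder. It too was lower in 5 of 5 animals, with an overlap between the highest graft and native library 4, and it differed by -1.65 on the log2 scale (SE 0.48, adjusted p = 0.0187). OAS2 and OASL, a relative that lacks the enzyme activity and acts on RNA sensing, varied more between animals. OAS2 had 12, 3.81, 0.584, 12.2 and 0.898 CPM in ileum grafts, against 11.9, 78.4, 14.5, 2.50 and 17.2 CPM in native bladder, and was lower in 3 of 5 animals. Neither passed, with log2 fold changes of -2.08 (SE 0.90, adjusted p = 0.123) for OAS2 and -1.24 (SE 1.04, adjusted p = 0.472) for OASL.

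The IFIT proteins bind foreign RNA ends and hold back its translation. IFIT2 (ENSPANG00000021698) had 22.7, 14.2, 9.15, 9.98 and 10.7 CPM in ileum grafts, against 34.5, 41.6, 27.5, 27.2 and 31.4 CPM in native bladder. Its groups did not overlap, and the log2 fold change was -1.28 (SE 0.34, adjusted p = 0.00983). IFIT3 (ENSPANG00000021699), which stabilises IFIT1 on RNA, had 21.4, 25.3, 9.64, 17.9 and 21.5 CPM in ileum grafts, against 43.7, 107, 32.2, 41.8 and 33 CPM in native bladder. These groups did not overlap, native library 2 was high, and the log2 fold change was -1.43 (SE 0.49, adjusted p = 0.0473). IFIT1 (9.80, 8.52, 10.8, 7.75 and 13.5 CPM in ileum grafts, against 22, 39.7, 9.40, 25.9 and 20.4 CPM in native bladder) was lower in 4 of 5 animals and missed the threshold, at -1.22 (SE 0.43, adjusted p = 0.055). IFIT5, at -0.98 (SE 0.41, adjusted p = 0.11), did not pass.

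IFI6 rested on fewer animals than the other 5. IFI6 (ENSPANG00000000246) had 78.0, 80.4, 57.4, 37.8 and 52.5 CPM in ileum grafts, against 242, 918, 43.6, 86.8 and 92.5 CPM in native bladder. The groups overlapped, animal 3 had the higher value in its graft, and native library 2 held 918 CPM of a group mean of 277 ± 367 (SD, n = 5). The log2 fold change was -2.18 (SE 0.75, adjusted p = 0.0491). Without native library 2 of this arm it was -0.92 (adjusted p = 0.384), and that of IFIT3 was -0.98 (adjusted p = 0.184). Over 18 alternative settings the adjusted p of IFI6 ran from 0.0141 to 0.384 and passed in 5, and that of IFIT3 from 0.00941 to 0.184, passing in 7. OAS1 passed in 15 of the 18 and did not without ileum graft 5 (adjusted p = 0.0514), without native library 3 (adjusted p = 0.0539) or without both libraries of animal 2 (adjusted p = 0.0722). IFI44L, OAS3 and IFIT2 passed in all 18, with adjusted p at most 0.00171, 0.027 and 0.0446. The count of members passing was 3 without ileum graft 5.

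**Figure D3:**
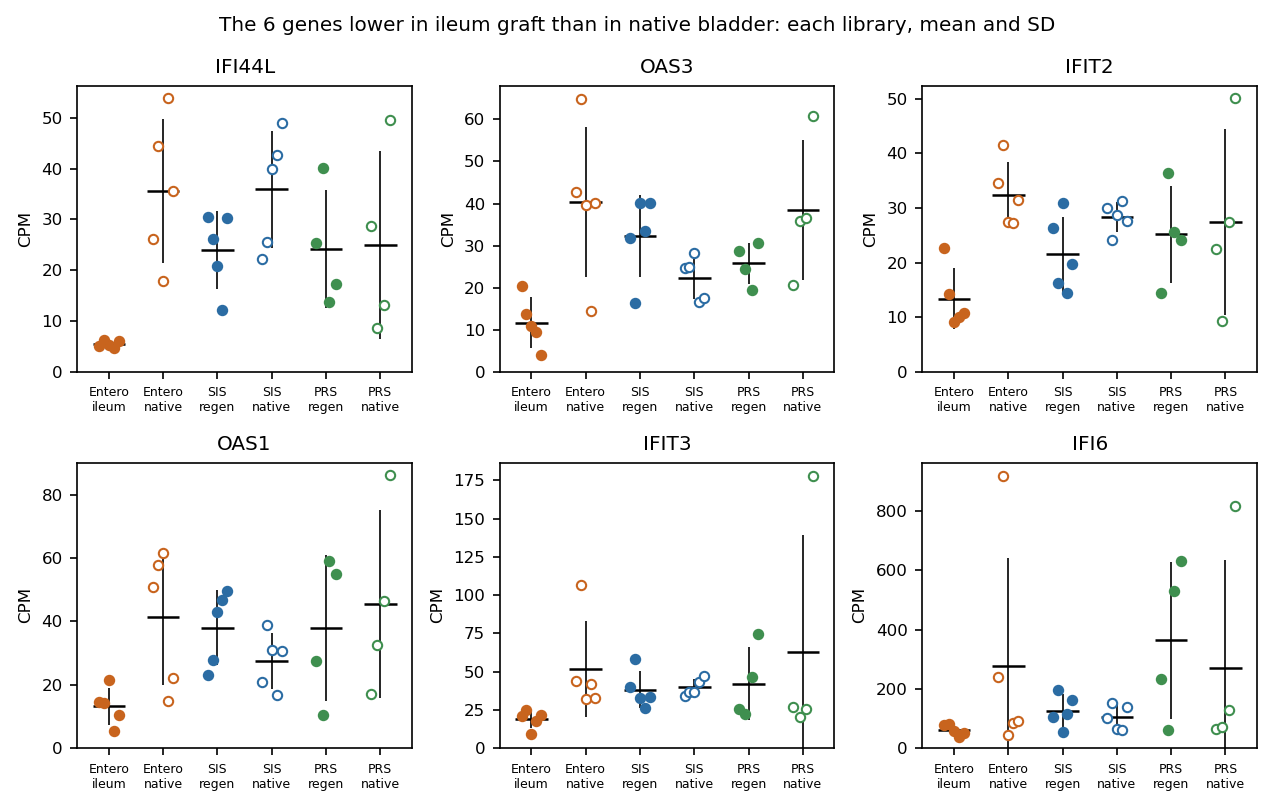
CPM of the 6 members that were lower in ileum grafts, per library (points), with the group mean and SD (bars, cut at 0), for all 6 groups, grafts left of native bladders. Ileum grafts are the lowest group mean for each of the 6 members, with IFI44L at 5.48 ± 0.69 CPM in ileum grafts and 35.6 ± 14.3 CPM in their native bladders.

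In 4 members (IFI44L, IFI44, IFIT2 and IFIT3) every ileum graft was below every native library, beside 5.86% of all genes. No member had every graft above every native library, beside 5.52% of all genes. By animal, 7 members were lower in 5 of 5 grafts (those 4 with OAS1, OAS3 and TRIM22), which 12.9% of all genes were, and 1 member was higher in 5 of 5, which 10.6% of all genes were.

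That member was ISG20, an exonuclease that degrades viral RNA. ISG20 had 26.4, 88.5, 49.9, 42.6 and 71.0 CPM in ileum grafts, against 9.90, 47.1, 5.55, 6.80 and 4.56 CPM in native bladder. The groups overlapped through native library 2, which exceeded ileum grafts 1 and 4, and the log2 fold change of 1.91 (SE 0.87) did not pass (adjusted p = 0.146). With each animal as a block it was 2.42 (adjusted p = 0.0197), and without native library 2 it was 3.05 (adjusted p = 0.0273), within a range of 0.00717 to 0.282 over the alternatives. IFI35, a partner of NMI in cytokine signalling, had 31.7, 89.8, 136, 61.9 and 108 CPM in ileum grafts, against 51.5, 56.1, 42.6, 38.1 and 45.6 CPM in native bladder. It was higher in 4 of 5 animals and did not pass at 0.87 on the log2 scale (SE 0.34, adjusted p = 0.0839), although it did by DESeq2 and without ileum graft 1.

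The remaining members of the Entero comparison did not pass. MX2 and MX1, dynamin-like GTPases that trap viral particles, had log2 fold changes of -1.46 (SE 0.60, adjusted p = 0.105) and -1.43 (SE 0.72, adjusted p = 0.191). HERC5, the ligase that joins ISG15 to proteins, had -2.12 (SE 1.04, adjusted p = 0.178), and TRIM22, another ubiquitin ligase, -0.92 (SE 0.45, adjusted p = 0.177). With each animal as a block TRIM22 passed at -0.98 (adjusted p = 0.0203, range over the alternatives 0.0203 to 0.562) and IFI6 did not, at -1.32 (adjusted p = 0.0907). ISG15, a ubiquitin-like protein often used as a marker of the response, had 6.89, 11.6, 4.82, 8.13 and 21.0 CPM in ileum grafts, against 8.78, 53.9, 9.44, 6.26 and 2.98 CPM in native bladder. Its groups overlapped widely, at -0.64 on the log2 scale (SE 0.77, adjusted p = 0.645). STAT2 and IRF9, the parts of the transcription complex on the list, had log2 fold changes of -0.46 (SE 0.35) and 0.09 (SE 0.25), and the 95% interval of IRF9 ran from -0.41 to 0.60. The other members, IFI27, IFIH1 (a sensor of long double-stranded RNA), HERC6, CMPK2, RSAD2 (viperin, which makes a chain-ending nucleotide), XAF1, EPSTI1, DDX60, PARP9, PARP14, DTX3L (which pairs with PARP9), SAMD9L and BST2, lay between -0.61 and 0.03.

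Several other measurements moved with the ileum comparison, and their part in these results was not tested. The mitochondrial share given above was higher in ileum grafts. All 13 tested intestinal epithelium markers were higher, 10 of 12 urothelium markers lower and 1 higher, and 3 of 8 fibroblast markers (DCN, FBLN1 and LUM) lower. The summed fibroblast markers were 1179 to 6934 CPM in ileum grafts and 3889 to 19910 CPM in native bladder. Summed neutrophil markers were 0.535 to 25.8 CPM in ileum grafts and 111 to 368 CPM in native bladder, without overlap, with 1 to 5 of 6 markers at 0 in a graft library. Of 5 tested neutrophil markers only S100A9 passed, at -6.30 on the log2 scale (adjusted p = 0.00108). Summed T and natural killer cell markers overlapped, at 109 to 385 CPM in ileum grafts and 103 to 503 CPM in native bladder, and 0 of 15 rows passed, with 1 at an unadjusted p under 0.05.

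In the SIS arm no member passed between regenerated tissue and native bladder by edgeR's quasi-likelihood test, where 0% of all genes passed in either direction. At an unadjusted p under 0.05 there were 2 members (6.06%, beside 4.86% of all genes), and DESeq2 called 0. ISG20 had 2.00, 29.4, 5.95, 13.4 and 7.40 CPM in regenerated tissue, against 3.12, 4.64, 2.20, 1.55 and 2.99 CPM in native bladder. It was higher in 4 of 5 animals, the groups overlapped through regenerated library 1, and the log2 fold change was 2.00 (SE 0.88, adjusted p = 0.972). DTX3L had 22.5, 14.3, 32.6, 32.6 and 33.6 CPM in regenerated tissue, against 22.4, 17.9, 21.4, 10.8 and 11.7 CPM in native bladder. It was higher in 4 of 5 animals with regenerated library 2 as the exception, the groups overlapped, and the log2 fold change was 0.69 (SE 0.32, adjusted p = 0.991). IFIT1 had 24.6, 11.6, 12, 5.80 and 9.11 CPM in regenerated tissue, against 20.7, 15.7, 18.5, 22.1 and 38.1 CPM in native bladder. It was lower in 4 of 5 animals, with overlap, and it differed by -0.87 on the log2 scale (SE 0.43, adjusted p = 1).

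For the 6 members that were lower in ileum grafts than in native bladder, the SIS log2 fold changes were -0.58 for IFI44L, 0.53 for OAS3, -0.40 for IFIT2, 0.46 for OAS1, -0.05 for IFIT3 and 0.29 for IFI6. The 95% intervals were -1.39 to 0.22 for IFI44L and -0.23 to 1.29 for OAS3. The median over the 33 members was 0.07, with 12 negative, beside a median of 0.03 over all genes. No member had groups that did not overlap, beside 0.623% of all genes with regenerated tissue wholly above and 0.524% wholly below. TRIM22 was lower in 5 of 5 animals, as 2.98% of all genes were, at -0.31 on the log2 scale (SE 0.44, adjusted p = 1).

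In the PRS arm, again, no member passed between regenerated tissue and native bladder by the same test, and 0% of all genes did. None reached an unadjusted p under 0.05, beside 3.62% of all genes, and DESeq2 called 0. The smallest p belonged to IFI27, a mitochondrial protein, with 14.3, 7.55, 11.8 and 16.0 CPM in regenerated tissue, against 16.9, 29.9, 10.5 and 57.7 CPM in native bladder. The groups overlapped, and the log2 fold change was -1.21 (SE 0.61, adjusted p = 1). OAS3 had 28.6, 24.3, 19.5 and 30.6 CPM in regenerated tissue, against 20.6, 35.8, 36.6 and 60.8 CPM in native bladder, with -0.58 on the log2 scale (SE 0.41, adjusted p = 1). CMPK2, a mitochondrial nucleotide kinase whose gene is induced with RSAD2, had 7.14, 8.27, 9.46 and 13.9 CPM in regenerated tissue, against 8.5, 8.19, 10.6 and 34.5 CPM in native bladder. For these genes native library 4 held the highest value of its group, and CMPK2 differed by -0.67 on the log2 scale (SE 0.49, adjusted p = 1). IFI44L had 25.4, 40.1, 13.8 and 17.4 CPM in regenerated tissue, against 28.8, 8.56, 13.2 and 49.6 CPM in native bladder, with libraries high and low on both sides, at a log2 fold change of -0.05 (SE 0.44, 95% interval -0.95 to 0.84).

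Over the 33 members the PRS median was -0.34, with 28 negative, beside 0.02 over all genes. Without native library 4 and Entero native library 2, left out together after the data were seen, the PRS median was 0.48, 3 members were negative, 4 reached an unadjusted p under 0.05 and 0 passed. No member had PRS groups that did not overlap, beside 0.792% of all genes with regenerated tissue wholly above and 0.408% wholly below. STAT2 was lower in 4 of 4 animals, as 4.17% of all genes were, with 33, 49.1, 33.4 and 87.8 CPM in regenerated tissue, against 35, 57.4, 43.5 and 101 CPM in native bladder. Animal 4 had the highest value on both sides, the groups overlapped, and the log2 fold change was -0.22 (SE 0.39, adjusted p = 1).

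**Figure D4:**
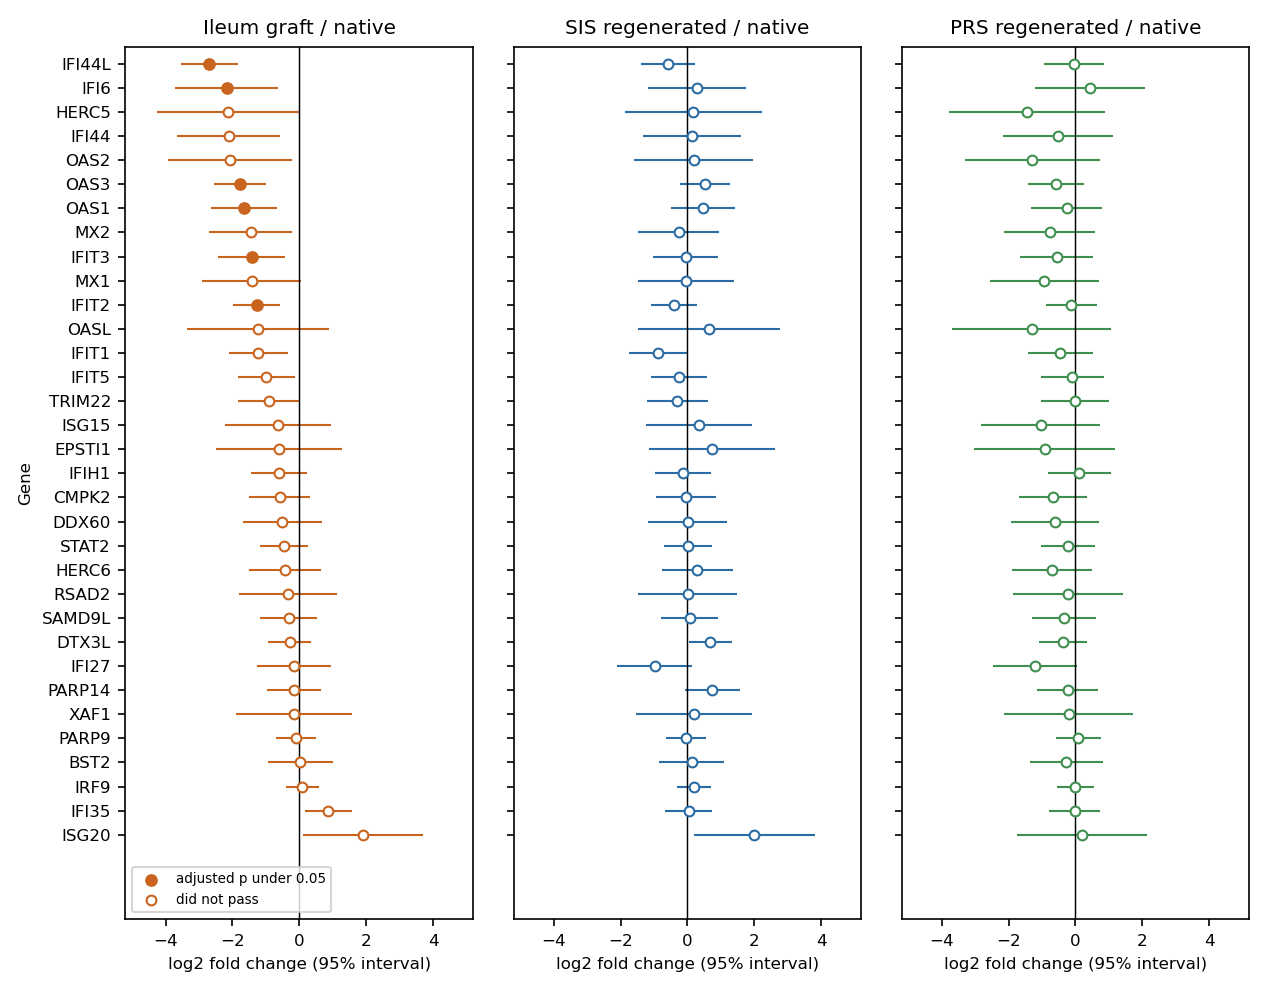
Log2 fold change of the graft over native bladder with its 95% interval for the 33 tested members, in the Entero, SIS and PRS arms (panels), with filled points for an adjusted p under 0.05. The 6 filled points are all in the Entero panel and all below 0, led by IFI44L at -2.70.

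The graft against native difference of 1 arm was then set against that of another within the same model. The Entero groups serve in both of the first differences, which are therefore not independent. Graft minus native was higher in the SIS arm than in the Entero arm for 2 members (6.06%, beside 3.59% of all genes). It was lower for 0, beside 2.97%. IFI44L had a difference of 2.12 on the log2 scale (SE 0.56, adjusted p = 0.0198) and OAS3 one of 2.32 (SE 0.53, adjusted p = 0.00678), while OAS1 at 2.11 (SE 0.66) had an adjusted p of 0.0555. With each animal as a block IFI44L had 2.01 and an adjusted p of 0.0901, OAS3 2.31 and an adjusted p of 0.0237, and OAS1 2.04 and an adjusted p of 0.0225. Over 28 alternatives the adjusted p ran from 0.00359 to 0.0901 for IFI44L and from 0.000981 to 0.0237 for OAS3. Between the PRS and the Entero arm, graft minus native was lower for 0 members, beside 1.91% of all genes. It was higher for IFI44L alone (3.03% of the members, beside 1.58% of all genes). Its difference was 2.65 (SE 0.60, adjusted p = 0.0109), and 2.71 with an adjusted p of 0.0679 with the block, the highest of 26 alternatives. Without PRS native library 4, 3 members passed (IFI44L, IFI6 at 4.22 and IFIT3 at 2.23), with no share of all genes given for that fit. Between the PRS and the SIS arm, 0 members and 0% of all genes passed, with 1 member at an unadjusted p under 0.05, and DESeq2 called 0.

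Graft against graft, which leaves the native bladders out, gave a short list. SIS regenerated tissue was higher than ileum grafts in 3 members (9.09%, beside 10.9% of all genes) and lower in 1 (3.03%, beside 10.2%). At an unadjusted p under 0.05, 8 members passed, 24.2% beside 34.3% of all genes. Members were thus called no more often than genes at large. IFI44L had 30.4, 26.1, 20.9, 12.1 and 30.4 CPM in SIS regenerated tissue, against the 4.66 to 6.32 CPM of ileum grafts. These groups did not overlap, and IFI44L was higher by 2.13 on the log2 scale (SE 0.41, adjusted p = 0.000502). OAS1 had 23.1, 27.8, 43.0, 46.6 and 49.6 CPM in SIS regenerated tissue, against 5.32 to 21.5 CPM in ileum grafts, again without overlap, at 1.52 (SE 0.48, adjusted p = 0.0234). OAS3 had 31.8, 16.3, 40.2, 33.4 and 40.03 CPM in SIS regenerated tissue, against 3.94 to 20.5 CPM in ileum grafts. Regenerated library 2 lay within the ileum range, and the log2 fold change was 1.46 (SE 0.38, adjusted p = 0.00667). The 1 lower member was IFI35, with 38.3 to 51.3 CPM in SIS regenerated tissue, against 31.7 to 136 CPM in ileum grafts, at -0.96 (SE 0.34, adjusted p = 0.0455), and it passed in 4 of 16 alternatives. Without SIS regenerated library 5 or without ileum graft 5 the count of members passing was 2 instead of 4.

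PRS regenerated tissue was higher than ileum grafts in 3 members (9.09%, near the 7.21% of all genes) and lower in 0, beside 6.75%. IFI44L was higher by 2.14 (SE 0.42, adjusted p = 0.00102), with 13.8 CPM or more in every PRS library. IFI6 had 233, 60.9, 530 and 633 CPM in PRS regenerated tissue, against 37.8 to 80.4 CPM in ileum grafts. Regenerated library 2 lay inside the ileum range, and the log2 fold change was 2.57 (SE 0.78, adjusted p = 0.0283). OAS1 had 27.6, 10.4, 59.0 and 55.0 CPM in PRS regenerated tissue, with library 2 again inside the ileum range, at 1.52 (SE 0.49, adjusted p = 0.04). Over 15 alternatives the IFI44L call held in 15, that of IFI6 in 10 (adjusted p up to 0.0777) and that of OAS1 in 7 (adjusted p up to 0.139). PRS against SIS regenerated tissue gave 0 members and 0% of all genes, with 0 members at an unadjusted p under 0.05, and DESeq2 called 0. Without ileum graft 1 the count of members higher in PRS regenerated tissue was 5, and without ileum graft 4 or 5 or PRS regenerated library 3 or 4 it was 1. The 3 SIS and 3 PRS members are set against the same 5 ileum grafts.

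Native bladders were compared across arms as well. No member and 0% of all genes passed for SIS against Entero native bladder, for PRS against Entero native bladder, or for PRS against SIS native bladder, and DESeq2 called 0 in each. At an unadjusted p under 0.05 there were 7, 0 and 8 members (21.2%, 0% and 24.2%), beside 4.14%, 2.15% and 7.02% of all genes. OASL was among them in the first and the last comparison, at log2 fold changes of -2.83 (SE 1.09, adjusted p = 1) and 3.39 (SE 1.15, adjusted p = 0.536). Without Entero native library 2 and PRS native library 4 there were 0, 2 and 3 members.

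These 2 libraries carried the highest list means of the study and were singled out for it after the values were seen, so what follows describes them. Entero native library 2 had the highest value of its group in 31 of the 33 members with reads, and PRS native library 4 in all 33. Over all 28 libraries they were highest in 6 and 21 members. Against the other 12 native libraries, Entero native library 2 exceeded the highest in 28 of 33 members and PRS native library 4 in 31 of 33, which they did in 14.8% and 17.6% of all genes. The median member was 3.13-fold and 2.80-fold above the median of those 12.

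MX1 had 156 CPM in Entero native library 2 and 239 CPM in PRS native library 4, against 9.48 to 30.2 CPM in the other 12 native libraries. ISG15 had 53.9 and 70.2 CPM in these libraries, against 1.70 to 19 CPM in the others. HERC5 had 36.1 and 50.2 CPM, against 0.254 to 6.03 CPM. In contrast IFI44L, the member with the smallest p in the ileum comparison, had 44.4 and 49.6 CPM, inside the 8.56 to 53.8 CPM of the other 12. The grafts of the same animals were partly high too. Ileum graft 2 had the highest list mean of its group at 4.16, and PRS regenerated library 4 had the highest of its group at 4.88, with 23 of 33 members at their group's highest value. MX1 had 14.4 CPM in ileum graft 2, the lowest of the 14.4 to 17.7 CPM of the ileum grafts, and 67.7 CPM in PRS regenerated library 4, above the 17.5 to 37.4 CPM of the other 3.

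**Figure D5:**
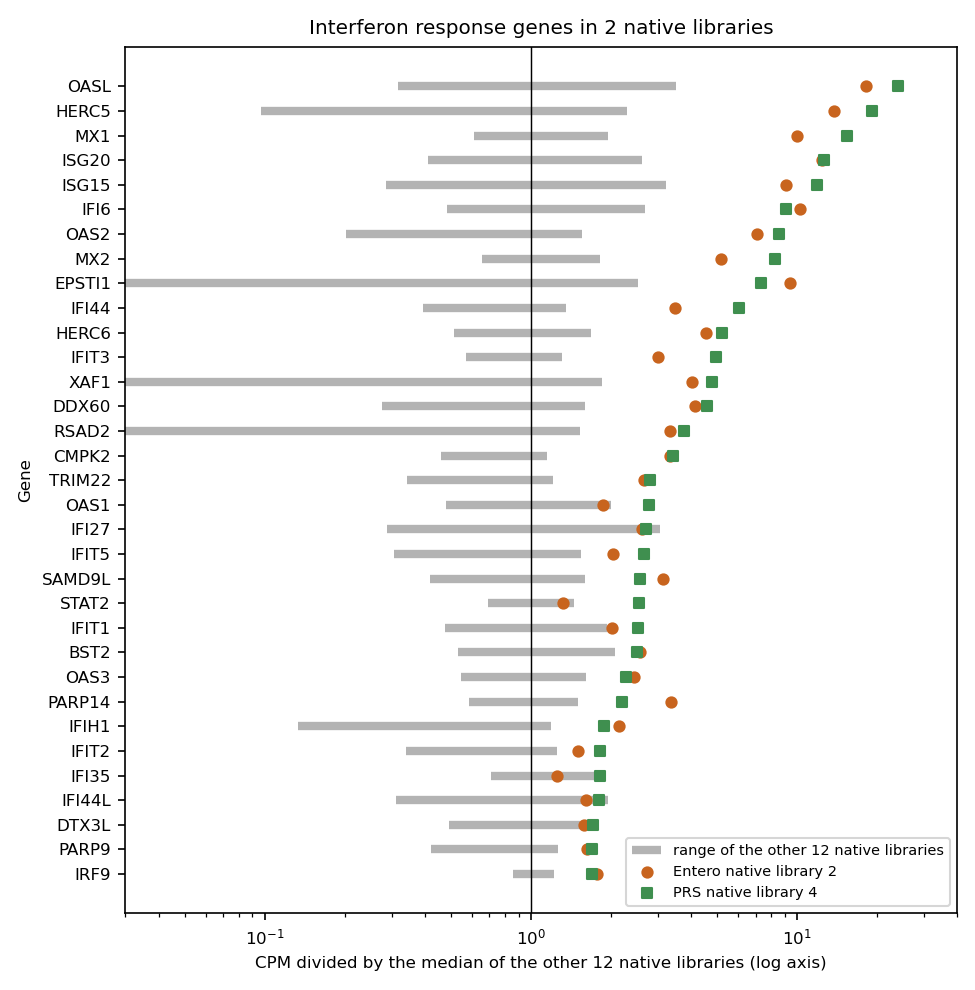
CPM of each of the 33 tested members in Entero native library 2 (circles) and PRS native library 4 (squares), divided by the median of the other 12 native libraries, on a log axis, with the range of those 12 as grey bars (bars that reach the left edge include a 0). The top row, OASL, lies at 18.1 and 24 times the median, and the bottom row, IRF9, at 1.78 and 1.70 times.

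Some immune markers were high in the same libraries, and their part in the interferon values was not tested. PTPRC (CD45, on all leukocytes) had 361 CPM in Entero native library 2 and 336 CPM in PRS native library 4, against 1.64 to 92.7 CPM in the other 12 native libraries. The 14 symbols of T and natural killer cells summed to 503 and 545 CPM, against 48.5 to 172 CPM, and plasmacytoid dendritic cell markers to 82.7 and 85.7 CPM, against 14.7 to 50.1 CPM. Of the plasmacytoid markers, GZMB had 31.0 and 31.4 CPM, inside the 1.15 to 36.8 CPM of the others. CLEC4C, the defining plasmacytoid marker, was at 0.174 and 0.156 CPM, against 0 to 0.135 CPM. A count of 0 in these libraries allows up to 0.106 and 0.133 CPM of their unscaled totals, so CLEC4C lay near the floor. B and plasma cell markers, at 1310 and 1373 CPM, lay just above the 73.8 to 1269 CPM of the others. That sum includes SDC1, with 16220 and 10011 reads in these 2 libraries and 40350 reads in PRS native library 3. A sum without SDC1 was not taken, so how far the remaining B and plasma cell markers differed is not given. Macrophage markers summed to 544 and 389 CPM, against 181 to 488 CPM, and neutrophil markers to 368 and 89.3 CPM, against 1.92 to 343 CPM, so that PRS native library 4 lay inside the range of the others for both. Smooth muscle markers summed to 6876 and 2698 CPM, below the 7610 to 89440 CPM of the other 12. PTPRC was also high in ileum graft 4, at 250 CPM, where the list mean was 3.68.

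Summed targets of the wider pathway were high in both libraries as well, while IRF1 lay within the range of the others. IRF1 had 132 and 118 CPM, against 23.4 to 144 CPM in the other 12 native libraries. Interferon gamma targets summed to 3957 and 4384 CPM, against 925 to 1556 CPM, and class I antigen presentation genes to 7184 and 8021 CPM, against 1942 to 4229 CPM. CXCL11, a chemokine that draws activated T cells, had 48.2 and 28.7 CPM, against 0.122 to 9.99 CPM. The ligands themselves were near 0, with 2.93 and 4.01 CPM summed over the 10 interferon genes in the table, against 0 to 2.78 CPM. IFNK, an interferon of epithelial cells, had 1.05 and 1.64 CPM, against 0 to 0.288 CPM, and IFNB1 had 0 CPM in both.

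Without the 2 libraries, 5 members were lower in ileum grafts and 1 higher, by edgeR's quasi-likelihood test. The shares of all genes that passed in this fit are not given, so these counts have no background beside them. IFI44L had -2.61 (SE 0.39, adjusted p = 7.6e-05), OAS3 -1.55 (adjusted p = 0.00572), IFIT2 -1.18 (adjusted p = 0.0134), OAS1 -1.50 (adjusted p = 0.0341) and IFIT3 -0.98 (adjusted p = 0.0344). IFI6 did not pass at -0.93 (adjusted p = 0.246), and ISG20 was higher at 3.05 (adjusted p = 0.00717). The median over the 33 members was then 0.02, with 16 negative, beside 0.00 over all genes. The lower median of the whole list in the ileum comparison was not kept without the 2 libraries, while 5 of the 6 calls were. With Entero native library 2 alone left out, IFIT3 did not pass by the same test (adjusted p = 0.184).

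The rest of the pathway in the ileum comparison was read from lists of other genes. Among 19 receptors and signal transducers 2 were higher in ileum grafts (10.5%, near the 7.72% of all genes) and 0 lower. The median of the list was 0.64 beside -0.03 over all genes. Both higher genes belong to the interferon lambda receptor. IFNLR1 had 21.9, 15.0, 28.1, 4.09 and 34.4 CPM in ileum grafts, against 4.26, 5.72, 6.03, 0.0384 and 1.93 CPM in native bladder. Only ileum graft 4 fell inside the native range, and the log2 fold change was 2.52 (SE 0.86, adjusted p = 0.0471). IL10RB had 82.1, 54.6, 17.6, 25.8 and 60.7 CPM in ileum grafts, against 19.5, 25.6, 19.4, 24.2 and 24.2 CPM in native bladder. Graft 3 lay below every native library and graft 4 just above the highest of them. As a group, ileum grafts were higher in IL10RB by 1.09 on the log2 scale (SE 0.30, adjusted p = 0.0136). IRF1 at 0.52 (SE 0.45, adjusted p = 0.493) did not pass. None of 17 nucleic acid sensors and adaptors (median -0.18) passed, with 3 at an unadjusted p under 0.05, and TLR3, a sensor of double-stranded RNA, had the smallest p at -1.59 (SE 0.57, adjusted p = 0.0607).

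Of 40 other type I interferon effectors (median -0.20), 3 were higher in ileum grafts and 2 lower (7.5% and 5%, no more than the 7.72% and 7.33% of all genes). PLSCR1, a phospholipid scramblase, was higher at 2.36 (SE 0.57, adjusted p = 0.00544), and so were LAP3, an aminopeptidase, at 0.85 (adjusted p = 0.0103) and NT5C3A, a nucleotidase, at 1.32 (adjusted p = 0.0352). SLFN5 was lower at -2.37 (SE 0.66, adjusted p = 0.0144), and SHISA5 at -0.71 (SE 0.20, adjusted p = 0.0153). Of 18 interferon gamma targets (median -0.47) 1 was higher and 2 lower (5.56% and 11.1%, near the 7.72% and 7.33% of all genes). BATF2, a transcription factor, had 18.5, 38.4, 25.8, 15.9 and 23.7 CPM in ileum grafts, against 3.72, 6.07, 4.20, 8.68 and 4.95 CPM in native bladder, without overlap, at 2.14 (SE 0.48, adjusted p = 0.00268). CXCL10 had 1.66, 8.72, 0.292, 9.55 and 2.55 CPM in ileum grafts, against 9.36, 55.8, 140, 7.95 and 14.5 CPM in native bladder. It was lower at -3.32 (SE 0.90, adjusted p = 0.0118), with some overlap, and SERPING1, the C1 inhibitor, was lower at -1.47 (SE 0.43, adjusted p = 0.021).

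Of 13 genes of class I antigen presentation 4 were higher in ileum grafts (30.8%, beside 7.72% of all genes), 0 were lower and 9 did not pass, with a median of 0.85. ERAP2, which trims peptides in the endoplasmic reticulum, had 516, 209, 65.4, 73.4 and 208 CPM in ileum grafts, against 20.9, 42.1, 15.6, 3.84 and 15.9 CPM in native bladder. The groups did not overlap, and the log2 fold change was 3.45 (SE 0.65, adjusted p = 0.000532). PSMB9 (2.01, adjusted p = 0.00555), PSMB8 (1.3, adjusted p = 0.0473) and PSMB10 (0.94, adjusted p = 0.0283), the catalytic subunits of the immunoproteasome, were higher as well. B2M, the light chain of class I molecules, had -0.19 (SE 0.42, 95% interval -1.05 to 0.68). None of the genes of these lists passed between graft and native bladder in the SIS or the PRS arm, where IRF1 had 1.38 (SE 0.46, adjusted p = 0.686) in SIS and 0.35 (SE 0.50, adjusted p = 1) in PRS. Over the 10 interferon genes in the table, 264 reads were counted in all 5 ileum grafts together and 269 in their native bladders, and of the 2 tested IFNG and IFNE neither passed.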

How the data were processed

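Total RNA of native and grafted bladder was sequenced, 28 libraries in 6 groups taken from the labels. The deposited table holds raw read counts by gene. The submitters' processing notes list featureCounts 1.5.0-p3, StringTie 1.3.3b and HISAT2 2.0.5. No source used here gives the build, the annotation or the strand setting, so overlapping, antisense and near-identical genes (such as neighbouring IFIT and OAS genes) may share reads. A gene length in bases, a column of the deposited table, served only for CPM per kilobase.

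Counts were tested in R 4.3.3 with edgeR 4.0.16 (filterByExpr with a minimum count of 10, TMM, 1 quasi-likelihood model of 6 groups over all 28 libraries). P-values were adjusted by Benjamini and Hochberg over 17177 genes, threshold 0.05. SEs were taken back from the F value. Log2 CPM used a prior count of 2. Alternatives were DESeq2 1.42.0 and its size factors, TMM without the mitochondrial genes, no filter, only the groups compared, the animal as a block, and each library left out. The code was tested on simulated counts. Totals of 20975648 to 35669026 counts set the precision, and floors cover counting error only.

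Each graft shares its animal code with 1 native library in the labels, so the samples are paired by animal. These codes also carry an F or M mark, which was not used. The deviations of the 14 pairs from their group means correlated at -0.20 to 0.61 (r), 7 of them over 0.1. In 4 of the 14 pairs the graft correlated best with its own native library among those of its arm. The members and all gene lists were chosen with earlier results of these data known. Members passing the threshold in a graft against native comparison, or else the 3 with the smallest p, are given in every library, and of other lists mainly the genes that passed. No sequences are printed, and 1 gene of the other lists is not reported here.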

Additional observations from a re-analysis of the deposited data

Results flagged for a closer look

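In 12 of 198 sets of a member's log2 CPM within a group, 1 library stood apart from the rest by Dixon's test, where chance sets apart about 1 in 20. The highest were IFIT3 in Entero native library 2 (6.74) and in PRS native library 4 (7.47), MX2 in PRS native library 4 (6.88), EPSTI1 in SIS regenerated library 2 (3.37) and OASL in SIS native library 2 (1.72). Set apart as the lowest were IFI44 in ileum graft 1 (-3.78, 0 reads), OAS3 (4.03) and STAT2 (3.73) in SIS regenerated library 2, DTX3L in PRS regenerated library 2 (3.84), IFI44 (2.52) and CMPK2 (2.23) in SIS native library 4, and RSAD2 in SIS native library 1 (0.95). The mean log2 CPM of the members was lowest in SIS regenerated library 4 (3.85), in a group whose other libraries lay within a narrow band. SIS regenerated library 2 was set apart in 3 members, high in EPSTI1 and low in OAS3 and STAT2.

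The log2 fold change of graft against native bladder differed between arms in 3 tests of the fit without an animal block. IFI44L differed by 2.12 and OAS3 by 2.32 on the log2 scale for SIS against Entero, and IFI44L by 2.65 for PRS against Entero. By edgeR's quasi-likelihood test with each animal as a block, OAS3 passed (adjusted p = 0.0237). IFI44L then did not, with an adjusted p of 0.0901 for SIS against Entero and 0.0679 for PRS against Entero. IFI44L was lower in 5 of 5 ileum grafts, in 3 of 5 SIS and in 2 of 4 PRS grafts than in native bladder.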

How the results depend on the processing

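No member that passed in the main fit turned direction in the comparison where it passed. Neither did ISG20 and TRIM22 in the ileum comparison, nor OAS1 between the SIS and Entero arms. Other members did turn. Without Entero native library 2 and PRS native library 4, 16 of 33 members were negative in the ileum comparison instead of 29, with ISG15 at 0.61 and MX1 at 0.02. IFI44L, OAS3 and IFIT2 passed in the ileum comparison under all 18. The ileum count of 6 members was 9 by DESeq2, which added IFI44 and IFIT1 as lower and IFI35 as higher, 3 without both libraries of Entero animal 2 and 3 to 6 with single libraries left out. For PRS against Entero the count of 1 was 0 with the replicate block, 2 without Entero native library 2 and PRS native library 4 (chosen after seeing the data) and 1 to 3 with single libraries left out. For SIS regenerated tissue against ileum grafts the count of 4 was 2 to 5 with single libraries left out, and for PRS regenerated tissue against ileum grafts the count of 3 was 5 by DESeq2 and 1 to 5 with single libraries left out. The list differences that lay near 0 did turn: that of SIS (0.10) was -0.19 with the median over members in place of the mean, and that of PRS (0.01) was -0.16 with the median and -0.21 to 0.38 with single animals left out. The PRS median over members turned without the 2 high native libraries, as given above. The cause of these shifts was not tested, and shares of all genes were not set beside the counts of these alternatives. The block by animal moved no other call than those of IFI44L, OAS1, ISG20, TRIM22 and IFI6 named above. No paired analysis was possible for graft against graft or native against native because these come from separate animals. How far depth limits the low members was not tested.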
